A study of Mus musculus with 9 samples.

Results

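The angiopoietin and Tie genes were examined in endothelial cells (ECs) sorted from mouse lungs with and without breast cancer metastases. They comprised 5 genes, the ligands Angpt1 and Angpt2, the receptors Tek (also known as Tie2) and Tie1, and the phosphatase Ptprb (VE-PTP), of 18193 genes measured. They were chosen by their symbols, and all 5 were found on the array. Each was represented by the probe set (a group of short probes against 1 transcript) with the highest mean over the 9 arrays.

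The 9 arrays formed 3 groups of 3, and all mice were of the immunodeficient NSG strain. Healthy lungs came from mice given rat IgG, the control antibody. Metastatic lungs were taken 3 weeks after injection into a vein of MDA-MB-231-LM2, human breast cancer cells from a subline that colonizes the lung, into mice that the series' design text gives as 6 to 8 weeks of age, and the healthy mice were matched to them in age. They received either rat IgG or 40 mg per kg of DC101, a rat antibody against the mouse VEGF receptor VEGFR2, on days 21 and 24 and were killed on day 25. Whole lungs were sorted for CD31, and cells with CD45 or CD11b (haematopoietic), EpCAM (epithelial), CD140a/b (fibroblasts and pericytes) or GFP (cancer cells) were excluded. ECs inside and outside metastatic nodules were not separated. Replicates are called biological in the labels, and whether each stands for its own mouse is not given. The p-values therefore cover the spread among these samples alone, which may differ from that among mice. Values are log2 expression after robust multiarray averaging (RMA). They ran from 5.4 to at most 14.65, and since probe sets differ in brightness, levels were compared within a gene only.

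Angiopoietins act on vessels through the receptor tyrosine kinase Tek on the EC surface. Angpt1, made largely by mural and other cells around the vessel and carried by platelets, activates Tek, keeps vessels quiescent and restrains FOXO transcription factors through AKT, whereas Angpt2, stored in and released by ECs themselves, can antagonize Angpt1 and loosens vessels during inflammation and sprouting. Tie1 is a co-receptor without a well-defined ligand of its own, and Ptprb removes phosphate from Tek and from the VE-cadherin complex.

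The 250 bases before the Tie1 start are shown because Tie1 is a gene whose proximal promoter is read by ETS factors, which are followed among the regulators below. In this RefSeq window (GRCm38.p6, chr4:118489850-118490099, minus strand), capitals mark GGAAG, the ETS core, on either strand.

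Tie1: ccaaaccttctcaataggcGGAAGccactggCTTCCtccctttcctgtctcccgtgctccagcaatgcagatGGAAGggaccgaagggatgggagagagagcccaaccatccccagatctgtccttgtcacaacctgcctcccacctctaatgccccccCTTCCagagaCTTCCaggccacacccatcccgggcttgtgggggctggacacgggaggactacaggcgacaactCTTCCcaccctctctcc

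The core occurred 6 times in these bases and 7 times in the 300-base window that also held the first bases after the start. It is a frequent word, present in 71.4% of 32851 mouse windows of 300 bases. A stretch of 30 bases just inside the Tek gene (chr4:94739309-94739338, plus strand) is shown because 2 transcription factors of the GATA family changed below. It held the only match in that gene's window to their motif AGATAA, which is set in capitals. The match lies 36 bases after the transcript start from which the window was taken, and the 250 bases before that start held 0 matches. A further Tek start is annotated upstream of it.

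Tek: ccggagcaggagcagaAGATAAgccttgga

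AGATAA was present in 11.2% of windows and was not found in that of Tie1, while GGAAG was not found in that of Tek. Neither window held GTAAACA, a FOXO motif present in 3.6% of windows, or ACGTG, a hypoxia-response core present in 19.6%. All motifs were searched on both strands, and a match is a description of the letters only. Windows for these 2 of the 5 genes were used.

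The sorted cells expressed endothelial genes at a like level in every group, with the mean over 13 pan-endothelial markers between 13.31 and 13.42 on all 9 arrays. Of these markers, Emcn alone was called, higher in metastatic than in healthy ECs under IgG (0.53, adjusted p = 0.0341). Markers of other cells moved between the groups and are given beside the results that they accompany.

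To determine how the angiopoietin and Tie genes change when metastases are present, ECs of metastatic lungs under IgG were compared with ECs of healthy lungs. Angpt1 fell by 1.97-fold, and it was the only 1 of the 5 genes to pass the test. Tek was lower and Angpt2 higher on every metastatic array without passing, and Tie1 and Ptprb differed little. The threshold was an adjusted p under 0.05 from the limma fit over all 18193 genes, which 6.53% of genes passed, 2.6% with lower values in metastatic ECs.

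Angpt1 was measured at 9.12, 9.20 and 8.74 in healthy ECs, and at 7.98, 8.10 and 8.06 in ECs of metastatic lungs. Every metastatic value lay below every healthy value, and the gap between the groups was wider than the spread within either. The group means were 9.02 ± 0.24 and 8.04 ± 0.06 (SD, n = 3), a log2 change of -0.98 with a standard error of 0.13, a 95% interval of -1.29 to -0.66 and an adjusted p of 0.00882. By the size of its change Angpt1 ranked 516 of 18193 genes.

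A second Angpt1 probe set gave the same direction. It read 8.84, 8.64 and 8.92 in healthy ECs and 8.22, 7.71 and 7.43 in metastatic ones, again with no overlap. Its log2 change was -1.01, with an adjusted p of 0.0422 in a fit over all probe sets. Over the 9 arrays the 2 probe sets correlated with r = 0.83, on arrays that share the group differences. Without the moderation of variances across genes the Angpt1 change did not pass (adjusted p = 0.0702). In the limma fit on all 9 arrays it passed narrowly (adjusted p = 0.0481). Angpt1 was a dim signal, with metastatic values under the array medians of 8.32 to 8.33, and it was not among the brighter genes tested separately.

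Angpt2, the context-dependent antagonist, was at 11.38, 10.89 and 11.13 in healthy ECs and at 11.44, 11.55 and 11.82 in metastatic ones. The groups did not overlap, but the brightest healthy array lay only just under the dimmest metastatic one. The means were 11.13 ± 0.25 and 11.60 ± 0.20 (SD, n = 3), a difference of 0.47 on the log2 scale (95% interval 0.09 to 0.85) that missed the threshold with an adjusted p of 0.145. The second Angpt2 probe set, which tracked the first less closely (r = 0.53 over 9 arrays), differed by 0.39 with an interval of -0.09 to 0.87.

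Tek, the receptor of both ligands, was at 13.25, 13.31 and 13.40 in healthy ECs. In metastatic ECs it was at 12.85, 13.00 and 13.02, below all healthy values. The difference was -0.36 (standard error 0.09, 95% interval -0.59 to -0.14), a 1.29-fold lower signal, with an adjusted p of 0.0714. It passed under 2 of the alternative settings, at 0.00624 with a variance prior that follows intensity and at 0.0328 when only the brighter genes were tested.

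The remaining genes of the receptor complex moved by small amounts. Tie1, the co-receptor, was at 13.63, 13.65 and 13.63 in healthy ECs and at 13.59, 13.54 and 13.41 in metastatic ones, a difference of -0.12 (95% interval -0.33 to 0.09, adjusted p = 0.493). Ptprb, the phosphatase, was at 14.23, 14.15 and 14.16 against 14.04, 14.11 and 14.08, a difference of -0.10 (95% interval -0.29 to 0.09, adjusted p = 0.54). Neither pair of groups overlapped, yet both differences were within the error of the fit. The mean of Ptprb over the 9 arrays lay only 0.49 log2 units under the top of the scale, and that of Tie1 lay 1.09 units under it. The other probe sets of Ptprb differed by -0.07 and -0.06.

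All 5 genes were thus separated between the groups, 4 toward lower and 1 toward higher values in metastatic ECs. Of all genes, 27.6% were separated in this way, 14.7% toward lower and 13% toward higher values.

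**Figure D1:**
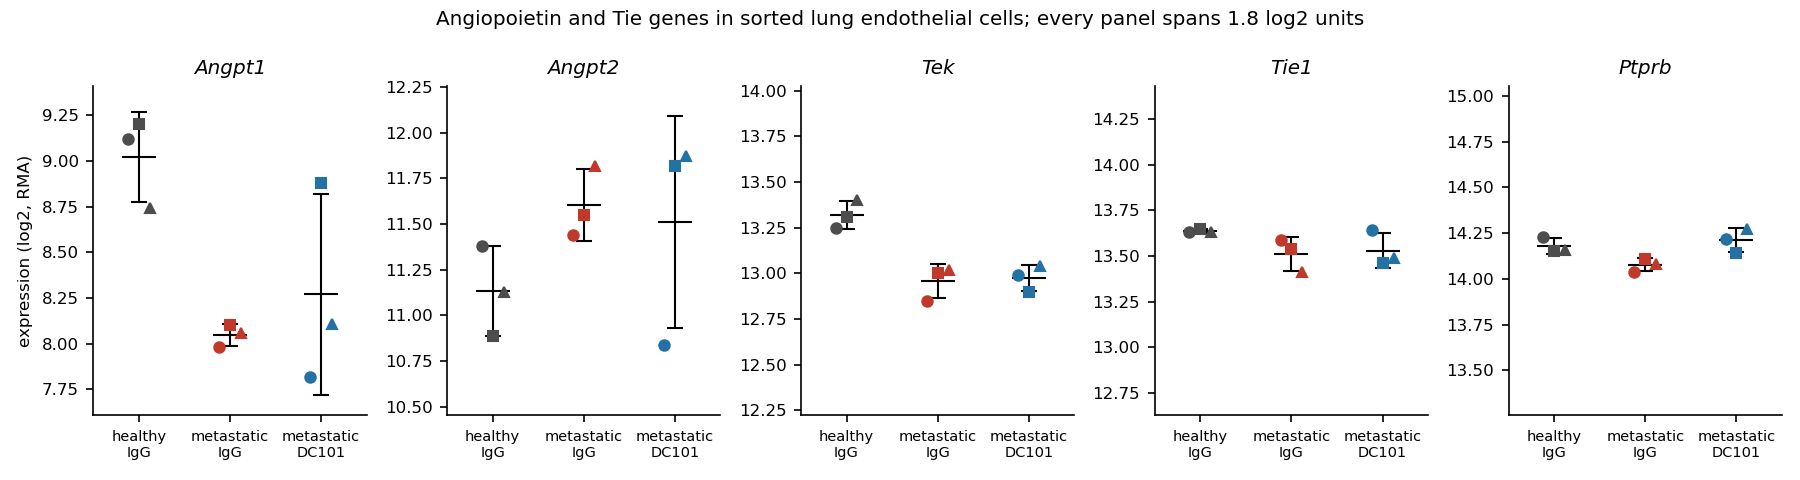
Log2 expression (RMA) of the 5 genes on each of the 9 arrays, by group, with circle, square and triangle for replicates 1, 2 and 3 and bars for the mean and SD; each panel spans the same number of log2 units at its own level. Angpt1 lay between 8.74 and 9.20 in healthy ECs and between 7.98 and 8.10 in metastatic ECs under IgG, while DC101 replicate 2 stood at 8.88 and DC101 replicate 1 was lowest for Angpt2 at 10.84.

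Because both angiopoietins bind Tek, their difference was also taken within each array. Angpt2 minus Angpt1 was 2.27, 1.69 and 2.39 log2 units in healthy ECs and 3.46, 3.45 and 3.77 in metastatic ECs. Only the shift between groups is read, since the 2 probe sets differ in brightness. The shift of 1.45 was without overlap, with an exact two-sided permutation p of 0.1, the smallest that 3 against 3 arrays allow. Every metastatic array was already lower in Angpt1 and higher in Angpt2, so this outcome was fixed by those values. It restates the changes of Angpt1 (-0.98) and Angpt2 (0.47) and is not separate support.

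Angpt1 is a gene of other cells as well as of ECs, and in sorted bulk RNA fewer cells of a type and less RNA per cell cannot be told apart. Platelet markers were lower in metastatic lungs, with a mean level of 8 markers of 9.09 to 9.29 on healthy arrays against 8.02 to 8.32. Of these, 4 fell (Pf4 by 1.59, Ppbp by 1.65, Tubb1 by 1.52 and Treml1 by 1.24 on the log2 scale) and none rose. The RMA scale has no zero, so a marker near its floor cannot be called absent.

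Fibroblast and mural markers, which include genes of pericytes, moved in both directions, with a median of -0.13. Their mean level over 16 markers was 9.52 to 9.71 in healthy and 9.44 to 9.76 in metastatic ECs, with 3 collagens, Col1a1 (1.85), Col1a2 (1.29) and Col3a1 (0.87), called higher and 2 genes, Myh11 (-1.14), of smooth muscle, and Dcn (-1.05), of fibroblasts, called lower. With probe sets averaged, neither Myh11 (-0.77, adjusted p = 0.0545) nor Dcn (-0.58, 0.168) passed. Apart from the collagens, every marker but Tagln (0.10) had a lower mean in metastatic ECs. Among those not called, Pdgfra, the gene of CD140a, was at -0.57 (adjusted p = 0.0596), below all healthy arrays, and Des was at -0.43 (0.163). Epithelial markers had a lower mean, at 8.98 to 9.63 against 8.60 to 8.84 over 11 markers. Of these, 4 (Cdh1, Sftpc, Sftpa1 and Ager) were called lower and none higher. Krt8 (0.70, adjusted p = 0.0682), Krt18 (0.55) and Scgb1a1 (0.79) went the other way without a call, and Epcam was at -0.01.

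Lymphatic markers, which bear on Angpt2 and Tie1 because lymphatic ECs share the CD31 gate, were higher at 10.82 to 10.97 against 9.39 to 10.01 over 7 markers. Among these Prox1 (2.31), Mmrn1 (1.84), Reln (1.63) and Thy1 (1.19) were called higher and none lower. When probe sets were averaged, Prox1 was at 1.43, Mmrn1 at 0.96 and Reln at 0.90. Pdpn (0.67) and Flt4 (0.41) were not called, nor was Lyve1, which lay below all healthy arrays (-0.20, adjusted p = 0.28). Macrophage markers were at 8.94 to 9.03 against 8.63 to 8.77 over 12 markers, of which 4 rose (C1qa by 1.54, C1qb by 1.38, C1qc by 0.70 and Mrc1 by 0.73) and none fell. Their median was 0.02, Ptprc, the gene of CD45, was at -0.68 (adjusted p = 0.0614), and C1qb did not pass without probe sets that can cross-hybridise (0.87, 0.0842). Of the 17 called markers in the platelet, fibroblast and mural, lymphatic and macrophage lists, 6 (Col1a1, Pf4, Ppbp, Treml1, Reln and Thy1) kept their call whichever array was left out and 0 passed without variance moderation. For Gapdh, the signal at the 3-prime end minus that at the 5-prime end, a sign of RNA quality, was 0.69 to 0.77 in healthy and 0.47 to 0.57 in metastatic ECs. For Actb, the other control, the groups overlapped, at -0.11 to 0.09 in healthy and 0.01 to 0.09 in metastatic ECs. The part of these shifts in the changes of Angpt1 and Tek was not tested.

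**Figure D2:**
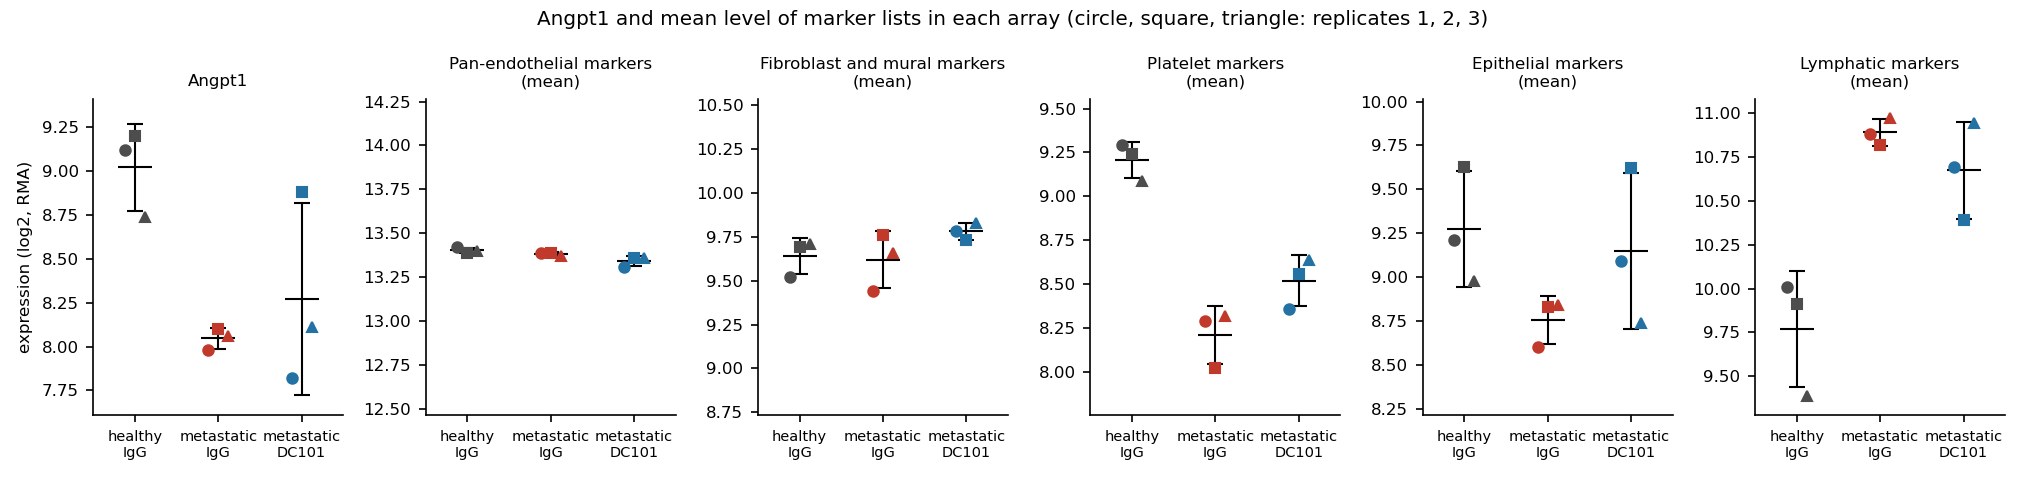
Log2 expression of Angpt1 and the mean log2 level of 5 marker lists on each array, by group, with replicates as symbols and bars for the mean and SD. Pan-endothelial markers stayed between 13.31 and 13.42, platelet markers were between 9.09 and 9.29 on healthy arrays and between 8.02 and 8.64 on metastatic ones, and epithelial markers on DC101 replicate 2 reached 9.62, the array where Angpt1 read 8.88.

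Partners of Tie signalling were then followed. Of 21 such genes (ligand and receptor processing, adaptors, kinases and their effectors), 1 rose, 2 fell and 18 did not pass, with a median change of 0.00 beside -0.02 over all genes. Grb14, an adaptor that binds Tek and the insulin receptor, was at 11.27, 10.90 and 10.88 in healthy ECs and at 9.82, 9.91 and 9.95 in metastatic ones, a change of -1.12 (adjusted p = 0.0044). Every metastatic value was lower, by more than either group's spread.

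Mmp14, a membrane-bound matrix metalloproteinase that can shed Tek, was at 10.49, 10.74 and 10.42 in healthy ECs and rose to 11.37, 11.44 and 11.48, a change of 0.88 (adjusted p = 0.00598). Foxo3, one of the FOXO factors held in check by AKT, was at 11.48, 11.55 and 11.35 and fell to 11.03, 11.07 and 11.04, a change of -0.41 (adjusted p = 0.0439). This Foxo3 call is close to the threshold and was lost in the fit on all 9 arrays (0.369) and after scaling to pan-endothelial markers (0.0538). Foxo1, the main FOXO factor of ECs, and Angpt4, a further angiopoietin, were picked for their role after their values were seen. They were at -0.04 (adjusted p = 0.868) and 0.04 (adjusted p = 0.931). Other genes without a call differed more, with Itgb1 (0.43, adjusted p = 0.0731) and Pik3r1 (0.31, 0.0722) above all healthy arrays. Ptpn11, Akt1 and Itga5 also lay above all healthy arrays, while Grb7 (-0.35) and Nck1 (-0.31) lay below them.

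Listed FOXO target genes did not all move in the same direction, and FOXO activity itself was not measured. Of 13, Bcl6, a transcriptional repressor, rose by 0.81 (adjusted p = 0.00885), Txnip, an inhibitor of glucose uptake, changed by -0.47 (0.0285) and Cdkn1b, a cell cycle inhibitor, by -0.40 (0.0479), and 10 did not pass. Their median was -0.08, and besides Bcl6 only Irs2, Sesn3 and Gadd45a had higher means in metastatic ECs. The 5 measured angiopoietin-like genes, secreted relatives that do not bind Tek, gave no call and a median of 0.13.

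Transcription factors known to act on these genes included 12 members, of which 1 rose, 2 fell and 9 did not pass, with a median of -0.09. Hif1a, the hypoxia-inducible factor, was at 11.79, 11.97 and 11.82 in healthy ECs and at 12.80, 12.86 and 12.76 in metastatic ones, a change of 0.95 (adjusted p = 0.00247) with no overlap. Gata2, an endothelial and haematopoietic GATA factor, went from 13.38, 13.37 and 13.30 to 12.96, 12.92 and 12.79, a change of -0.46 (adjusted p = 0.029). Gata3 went from 11.09, 11.13 and 10.85 to 9.86, 10.36 and 10.49, a change of -0.78 (adjusted p = 0.0482).

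Gata2, Gata3, Foxo3, Txnip and Cdkn1b each lost their call whichever 1 of the 6 arrays was left out. Without variance moderation Grb14 and Bcl6 lost it as well (adjusted p = 0.0501 and 0.0577), while Hif1a and Mmp14 kept it. The ETS factors, whose core recurs before Tie1, gave no call, with Erg at 0.02 (adjusted p = 0.916) and Fli1 at 0.41 (0.0523), both named after their values were seen.

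**Figure D3:**
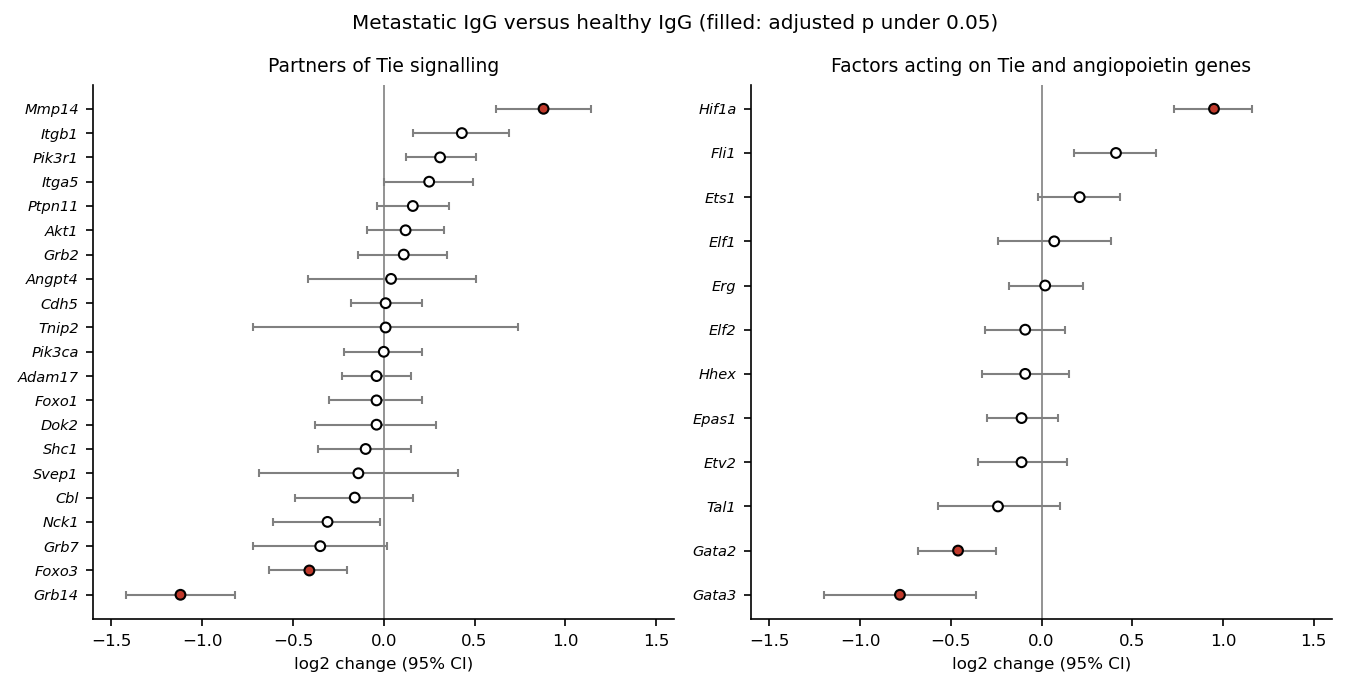
Log2 change in metastatic ECs under IgG against healthy ECs, with 95% intervals from limma, for 21 partners of Tie signalling (left) and 12 transcription factors acting on the genes (right); filled points passed an adjusted p under 0.05. Grb14 (-1.12) and Mmp14 (0.88) lie at the ends of the left panel and Gata3 (-0.78) and Hif1a (0.95) at those of the right.

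Genes of the neighbouring VEGF pathway and of tip cells, the leading cells of sprouts that express Angpt2, were included as further context. Of 5 VEGF receptors and neuropilins, Nrp2 rose by 1.59 (adjusted p = 0.00141), while Kdr, which encodes the target of DC101, was at -0.04 (adjusted p = 0.84). Of 12 tip cell genes 5 were not called, namely Nid2 (0.84), Esm1 (0.16), Dll4 (-0.07), Plvap (-0.18) and Plaur (-0.31). Plvap and Plaur lay below all healthy arrays. The other 7 were called higher and none lower, with a median of 0.76 over the 12. They included the vasoactive peptides Adm (1.63) and Apln (1.07), the growth factor binding protein Igfbp3 (1.16), the VEGF family ligand Pgf (1.10), the netrin receptor Unc5b (0.84) and the chemokine receptor Cxcr4 (0.68). Cxcr4 and Pdgfb, the remaining riser, each lost their call in 5 of the 6 fits without 1 array, and Cxcr4 also in the fit on all 9 arrays (adjusted p = 0.274).

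To ask whether blockade of VEGFR2 alters the angiopoietin and Tie genes in metastatic lungs, DC101 was compared with IgG. None of the 5 genes passed the test. No gene of the 18193 did (0% by limma), and 1209 (6.65%) had an unadjusted p under 0.05, against 893 to 1943 in alternative fits over 17903 or 18193 genes and 644 of the 9096 brighter genes, none of which gave a call either.

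Angpt1 was at 7.82, 8.88 and 8.11 under DC101. Replicates 1 and 3 lay just outside the IgG values of 7.98 to 8.10, while replicate 2 was inside the healthy range. The difference was 0.23 (95% interval -0.36 to 0.81, adjusted p = 0.883), and without DC101 replicate 2 it was -0.08. The second probe set was also highest on that array (7.94, 8.74 and 7.90). That array also had the highest mean level of epithelial markers among the metastatic arrays, at 9.62 against 8.60 to 9.09 on the others, and the part of these cells in its Angpt1 value was not tested.

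Angpt2 was at 10.84, 11.82 and 11.87 under DC101. Replicate 1 was lower than every healthy and metastatic IgG array, and the others were at or above the IgG maximum. The difference was -0.09 (95% interval -0.74 to 0.55, adjusted p = 0.961), and it turned to 0.24 without replicate 1. The intervals of Angpt1 and Angpt2 both hold differences as large as the one Angpt2 showed between healthy and metastatic ECs. A change of that size was thus not excluded. The Angpt1 interval (-0.36 to 0.81) did not span the full size of the Angpt1 change between healthy and metastatic ECs (-0.98).

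The receptors were measured more tightly. Tek was at 12.99, 12.90 and 13.04 under DC101, within or next to the IgG values, a difference of 0.02 (95% interval -0.23 to 0.27, adjusted p = 0.979). Tie1 was at 13.64, 13.46 and 13.49, a difference of 0.02 (95% interval -0.24 to 0.27, adjusted p = 0.984).

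Ptprb was at 14.22, 14.14 and 14.27, above all 3 IgG values. The difference was 0.13 (95% interval -0.10 to 0.36, adjusted p = 0.819). It was the only 1 of the 5 genes whose groups did not overlap, where 12.4% of all genes did not, 5.4% with higher and 6.95% with lower values under DC101. The other probe sets differed by 0.03 and 0.19.

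The difference Angpt2 minus Angpt1 was 3.02, 2.94 and 3.76 under DC101, overlapping the IgG values. The shift was -0.32 (exact two-sided permutation p = 0.3). No gene of the Tie partner, FOXO target, angiopoietin-like, transcription factor, VEGF receptor or tip cell lists was called. Their medians were 0.03, -0.08, 0.04, 0.04, -0.10 and -0.29 beside -0.02 over all genes. Every tip cell gene but Plaur (0.07) had a lower mean under DC101. Nid2 (-0.76), Unc5b (-0.41) and Adm (-0.45) lay below all IgG arrays, as did 6.95% of all genes. Among VEGF receptors and neuropilins, Nrp2 (-0.29) lay below them too, while Flt4 (0.14) and Nrp1 (0.07) had higher means.

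Grb14, lower in metastatic ECs under IgG, was at 10.29, 10.49 and 10.00 under DC101, above all IgG values and below all healthy ones, a difference from IgG of 0.37 (95% interval 0.03 to 0.70, adjusted p = 0.741). Foxo3 was at 12.17, 11.30 and 11.15, where replicate 1 alone exceeded the healthy range, a difference of 0.49 (95% interval -0.09 to 1.08, adjusted p = 0.762). Gata2 was at 13.44, 13.12 and 12.89, overlapping both other groups, a difference of 0.26 (95% interval -0.10 to 0.62, adjusted p = 0.779). Hif1a was at 12.95, 13.14 and 12.97, a difference of 0.21 (-0.04 to 0.46, adjusted p = 0.761).

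ECs of metastatic lungs under DC101 were finally set against healthy ECs. This comparison shares its arrays with both others, so its values are given for each gene and not as separate support. None of the 5 genes passed, where 2.42% of all genes did, 0.835% with lower values under DC101.

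Tek was lower on all 3 DC101 arrays than on any healthy array, with means of 12.97 ± 0.07 and 13.32 ± 0.08 (SD, n = 3), a difference of -0.35 (95% interval -0.58 to -0.11, adjusted p = 0.149). It was the only 1 of the 5 whose groups did not overlap, beside 23.1% of all genes, 13.6% toward lower and 9.44% toward higher values. The prior that follows intensity brought it past the threshold (adjusted p = 0.0329).

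Angpt1 differed by -0.75 (95% interval -1.38 to -0.11, adjusted p = 0.223), with replicate 2 inside the healthy range. Without that array the difference was -1.06 and the adjusted p was 0.0625. Angpt2 differed by 0.38 (-0.29 to 1.04, adjusted p = 0.564), Tie1 by -0.10 (-0.34 to 0.13, adjusted p = 0.662) and Ptprb by 0.03 (-0.20 to 0.26, adjusted p = 0.913). Angpt2 minus Angpt1 shifted by 1.13, again without overlap (exact two-sided permutation p = 0.1).

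**Figure D4:**
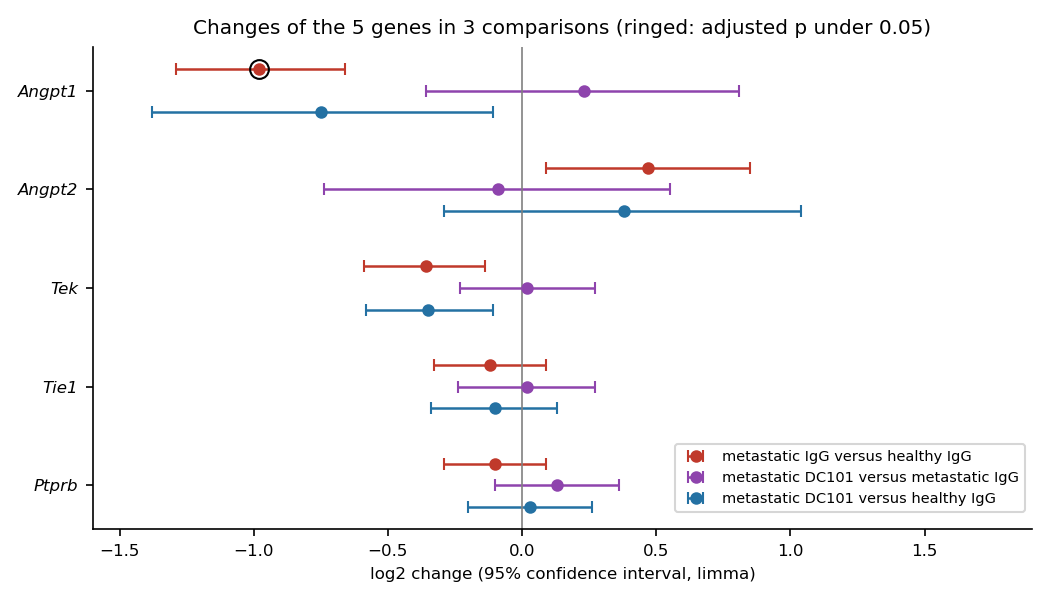
Log2 change of the 5 genes in the 3 comparisons, with 95% confidence intervals from limma; a ring marks an adjusted p under 0.05. Angpt1 in metastatic against healthy ECs under IgG (-0.98) is the only ringed point, and the intervals of Angpt1 and Angpt2 are wider in the comparisons with DC101 than those of Tek, Tie1 and Ptprb.

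Among the partners, no Tie pathway gene was called here, with Grb14 at -0.76 (adjusted p = 0.0737) and Mmp14 at 0.77 (0.0901). Hif1a at 1.16 (0.00432), Bcl6 at 0.90 (0.0277), Nrp2 at 1.30 (0.00748) and Adm at 1.18 (0.0304) were higher, and Gata3 at -0.78 (0.0323) was lower. The call of Gata3 was lost without any 1 of the 6 arrays, and those of Bcl6, Adm, Pf4 and Ppbp in 5 of the 6 fits that left out an array. Nrp2 lost its call when its probe sets were averaged (0.91, adjusted p = 0.0662). Platelet markers were at 8.36 to 8.64 under DC101, still below the healthy range, and 3 of 8 fell (Pf4, Ppbp and Tubb1). Fibroblast and mural markers were at 9.73 to 9.83, with Col1a1, Col1a2 and Col3a1 higher. Leaving out an array cost Col1a2 its call in 5 of the 6 fits, Tubb1 in 3 and Col3a1 in 1.

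Across all 9 arrays the 5 genes varied by different amounts and in different orders. As a description over arrays that share the group differences and the scale, Angpt2 and Tie1 ran opposite (r = -0.89), Angpt1 and Tek ran together (r = 0.66), and Angpt1 and Angpt2 were nearly unrelated (r = -0.20). DC101 replicate 1, the lowest array for Angpt2, was next to the highest for Tie1.

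The genes most like each in pattern, out of 18193, were taken by Pearson r over the 9 arrays. They were Spice1 (0.954), Nkapl (0.938) and Immp1l (0.938) for Angpt1, and Sema3d (0.923), Sdr42e1 (0.920) and Lmna (0.916) for Angpt2. For the receptors they were Adgrg6 (0.980), Fam71a (0.973) and Utrn (0.969) for Tek and Mrpl35 (0.955), Taok2 (0.947) and Mknk2 (0.945) for Tie1. For Ptprb they were Anapc10 (0.958), Shisal1 (0.958) and Fam78b (0.952). With 9 arrays and this many genes, values of this size are a description only.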

How the data were processed

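The deposited values are log2 expression from Affymetrix mouse 430 2.0 arrays, 1 column per array, which the authors normalized by RMA in Chipster. The log base is not stated in the table and was taken from RMA, which equalises arrays and so hides changes in total RNA. Columns held 5883 to 6694 distinct values, so values were tied or rounded. Of 45101 probe sets, 64 were controls, 34945 had 1 gene symbol in the platform table, 932 had several and 9160 were not named here. RefSeq (GRCm38.p6) held the gene IDs of 34741. The brightest probe set stood for each of 18193 genes, 9010 of which had several, with no filter on dim genes.

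Each comparison used its 6 arrays in limma 3.58.1 (R 4.3.3), two-sided, after the two-group empirical Bayes comparisons of the study's methods, with Benjamini-Hochberg adjustment over all genes and a threshold of 0.05. The fit was tested on simulated data. The number of arrays limits the precision. Alternatives were other probe sets, their mean, no cross-hybridising types, all 9 arrays, the replicate block, 2 variance settings, bright genes only, scaling to pan-endothelial markers and leaving out each array. The genes and lists were chosen with earlier results of these data known. The plan named the 5 genes with every probe set, called list genes (at most 6, by size) and at most 4 called per marker list. It added the 3 most alike, without Riken, LOC and Gm names. The tip cell list and the fibroblast and mural list went past these limits, and genes without a call were also named. List genes were run under the same alternatives, chosen after seeing the data.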

Additional observations from a re-analysis of the deposited data

How the results depend on the processing

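In metastatic against healthy ECs, leaving out each array kept Angpt1 called (-1.11 to -0.89, adjusted p 0.00632 to 0.0412) and 1 of the 5 genes called (1 to 1). Angpt2 ranged from 0.35 to 0.60, Tek from -0.40 to -0.31, Tie1 from -0.16 to -0.07, Ptprb from -0.12 to -0.08 and Angpt2 minus Angpt1 from 1.23 to 1.58. Without variance moderation Angpt1 (-0.98, adjusted p 0.0702) lost its call and 0 genes were called. Tek (-0.36) passed with the prior that follows intensity, which gave 2 calls, and with bright genes only, a set that did not hold Angpt1. Over all genes, 1188 calls became 1766 with that prior, 689 with the replicate block and 376 without moderation.

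In DC101 against IgG the ranges were -0.08 to 0.45 for Angpt1, -0.27 to 0.24 for Angpt2, -0.04 to 0.06 for Tek and for Tie1, 0.10 to 0.17 for Ptprb and -0.58 to -0.17 for Angpt2 minus Angpt1, with 0 calls in each. Signs turned for Angpt1 without DC101 replicate 2 (-0.08), Angpt2 without IgG replicate 3 (0.02) or DC101 replicate 1 (0.24), Tie1 without the same arrays (-0.03 and -0.04), and Tek without IgG replicate 1 (-0.04) or DC101 replicate 3 (-0.01).

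In DC101 against healthy ECs the ranges were -1.06 to -0.52 for Angpt1, 0.20 to 0.71 for Angpt2, -0.38 to -0.31 for Tek, -0.16 to -0.07 for Tie1, 0.00 to 0.07 for Ptprb and 0.87 to 1.28 for Angpt2 minus Angpt1, with 0 calls in each. Tek (-0.35) was the 1 call with the intensity prior, and a further Ptprb probe set turned its sign (-0.04). All-gene calls of 440 became 247 with the replicate block, 662 with all 9 arrays and 14 without moderation. The cause of these changes was not tested.

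The replicate numbers did not pair the arrays, since deviations of same-numbered arrays correlated with r of -0.054 to 0.084. With the replicate block no call among the 5 genes changed, and Angpt1 in metastatic ECs was at -0.98 (adjusted p 0.0284). Under the block Prox1 (0.0546), Mmrn1 (0.0705), Cxcr4 (0.0697), Pdgfb (0.0732), Mrc1 (0.127) and C1qc (0.099) lost their calls there, as did Foxo3, Txnip, Cdkn1b, Gata2 and Gata3.

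Among called genes of the lists, 426 values under these settings kept their call and 194 lost it, none with a change of direction.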
